A study of Mus musculus with 7 samples.

Results

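The circadian output genes described here are 9 genes that the molecular clock drives or that feed back on it, measured in kidneys of male mice: Dbp, Tef, Hlf, Ciart, Bhlhe40, Bhlhe41, Nfil3, Usp2 and Wee1. They were chosen by gene symbol, as 9 of the 48709 Ensembl genes in the counts, and all 9 passed the filter on low counts that left 15394 genes. The choice was made with earlier results of these data known, so the differences and correlations below describe these libraries and are not independent evidence. Kidneys came from 4 male mice labelled as carrying a double knockout of Hs3st3a1 and Hs3st3b1 (DKO, replicates 1 to 4) and from 3 male mice labelled as wild type (WT, replicates 1, 2 and 4). Both knocked-out genes encode 3-O-sulfotransferases of heparan sulfate, and the study's title concerns kidney and glomerular size after their loss. Each library carries a number of its own in the labels and was taken as 1 mouse; where 2 libraries shared a source, p-values would measure technical spread only. Age, strain, the design of the alleles and the time of day at which the kidneys were taken are not given in the labels.

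In the mouse clock, BMAL1 pairs with CLOCK or NPAS2 and binds E-box sequences to switch on the Per and Cry repressors and many output genes. DBP, TEF and HLF are activators of the PAR bZIP family that bind D-box sequences, and NFIL3 is a repressor that binds the same sequences. Transcripts of Dbp, Tef, Hlf, Ciart, Per and Nr1d genes swing over the day in the kidney and other organs, and Bmal1, Npas2 and Nfil3 peak in a different part of the day.

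The promoters are shown because the clock is known to act through short promoter sequences. A link between these sequences and the levels in these kidneys was not tested. A window of 300 bases around the RefSeq start site (250 before, 50 after, GRCm38.p6) was matched for 7 of the 9 genes. Bhlhe40 and Wee1 had no matched window. The 4 windows below include those of Ciart and Bhlhe41, the output genes whose levels varied most alike over the libraries. The others are a window of the abundant activator Tef and that of the repressor Nfil3. Capitals mark the E-box CACGTG in the first 3 and, in Nfil3, the ROR element AGGTCA, which reads TGACCT on the strand shown. Each is written 5′ to 3′ on the strand of its gene.

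Ciart, chr3:95882179-95882478, minus strand: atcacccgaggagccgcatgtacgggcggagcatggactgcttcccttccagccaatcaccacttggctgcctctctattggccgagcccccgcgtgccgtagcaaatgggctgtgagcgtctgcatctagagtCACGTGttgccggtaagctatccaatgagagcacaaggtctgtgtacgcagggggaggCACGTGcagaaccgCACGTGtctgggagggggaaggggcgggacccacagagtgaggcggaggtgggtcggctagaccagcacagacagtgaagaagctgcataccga
Bhlhe41, chr6:145865371-145865670, minus strand: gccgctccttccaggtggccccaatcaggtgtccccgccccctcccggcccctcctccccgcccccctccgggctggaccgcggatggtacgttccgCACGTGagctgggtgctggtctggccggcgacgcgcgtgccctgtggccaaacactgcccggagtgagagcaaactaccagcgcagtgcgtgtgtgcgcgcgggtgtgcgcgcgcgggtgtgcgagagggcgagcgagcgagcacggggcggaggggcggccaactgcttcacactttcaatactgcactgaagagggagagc
Tef, chr15:81802423-81802722, plus strand: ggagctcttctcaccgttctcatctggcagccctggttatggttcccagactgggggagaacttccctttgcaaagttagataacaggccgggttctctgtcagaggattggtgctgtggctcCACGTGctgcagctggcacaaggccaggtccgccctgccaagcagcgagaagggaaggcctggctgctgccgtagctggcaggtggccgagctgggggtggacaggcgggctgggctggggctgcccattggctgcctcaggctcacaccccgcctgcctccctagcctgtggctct
Nfil3, chr13:52980990-52981289, minus strand: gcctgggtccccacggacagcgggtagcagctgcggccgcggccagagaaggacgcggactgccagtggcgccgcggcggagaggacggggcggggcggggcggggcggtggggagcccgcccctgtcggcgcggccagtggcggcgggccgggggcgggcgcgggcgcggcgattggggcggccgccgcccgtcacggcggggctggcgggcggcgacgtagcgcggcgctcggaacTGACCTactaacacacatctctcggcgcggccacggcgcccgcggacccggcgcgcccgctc

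The Ciart window held 3 copies of CACGTG, which start 116, 58 and 44 bases before the start site. The Bhlhe41 window held 1 copy, and each of the 2 windows of Tef held 1. An E-box was in 4 of the 8 windows of the 7 output genes, against 7.15% of all 32851 windows, when both strands were searched. These 4 windows belong to 3 genes, since Tef has 2. The ROR element was in 1 of the 8 windows, that of Nfil3, against 16.3% of all windows. Neither CACGTT nor the D-box TTANGTAA was in any of these windows, against 4.68% and 2.32% of all windows. No match overlapped another in these windows, and a match is a description of the letters in the window.

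The libraries held between 18330833 and 24259231 gene counts. Hs3st3a1, the checked target, received 1, 0, 0 and 3 reads in DKO replicates 1 to 4, against 29, 13 and 12 reads in WT replicates 1, 2 and 4. Hs3st3b1 received 33, 106, 65 and 108 reads in DKO, against 56, 90 and 112 reads in WT, and the labels do not say which part was deleted. Defining kidney markers were abundant in every library: summed over 5 proximal tubule genes they reached 5715 to 7394 CPM (read counts put on a common library size, scaled by the trimmed mean of M-values) in DKO and 6290 to 8935 CPM in WT. The lower DKO sum came from 1 of the 5, Kap, at 913, 895, 273 and 2039.8 CPM in DKO, against 2594, 2339 and 5423 CPM in WT. The other 4 had log2 fold changes above 0, and DESeq2 called Slc34a1 (0.51, DESeq2 adjusted p 0.0300) and Cubn (0.60, DESeq2 adjusted p 0.0469) higher in DKO. DKO replicate 3 was the highest library for 18.6% of all tested genes and WT replicate 4 for 26.4%.

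Among the output genes, 1 kidney stood out. DKO replicate 3 had the highest level of 8 of the 9, all but Nfil3. The spread between kidneys was wide: the median output gene ranged 4.23-fold between its lowest and highest library, and the median of all tested genes 1.93-fold (log2 CPM with a prior count of 2).

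Of the PAR bZIP activators, Tef (ENSMUSG00000022389, chromosome 15, positions 81802421 to 81826863) was the most abundant. It was at 138, 126, 296 and 77.8 CPM in DKO replicates 1 to 4, against 81.3, 108 and 148 CPM in WT replicates 1, 2 and 4. DKO replicate 3 was highest and DKO replicate 4 lowest, so the groups overlapped. Dbp (ENSMUSG00000059824, chromosome 7, positions 45705088 to 45710203) was at 1.94, 1.79, 7.74 and 0.653 CPM in DKO, against 1.09, 2.70 and 2.89 CPM in WT. It was again highest in DKO replicate 3 and lowest in DKO replicate 4, and WT replicates 2 and 4 lay above the other 3 DKO kidneys. Hlf (ENSMUSG00000003949, chromosome 11, positions 90336536 to 90390895) was at 32.2, 25.8, 40.1 and 19.8 CPM in DKO, against 15.9, 25.8 and 15.9 CPM in WT. Its groups overlapped, since DKO replicate 4 lay below WT replicate 2, and DKO replicate 2 was level with WT replicate 2.

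Dbp rested on few reads. It had 151 reads in DKO replicate 3 (7.74 CPM, exact 95% Poisson interval 6.55 to 9.08) and 16 in DKO replicate 4 (0.653 CPM, 0.373 to 1.06), intervals that cover counting error only. Its exons share 539 nt with those of Sphk2, a sphingosine kinase gene on the opposite strand, and the library kit does not mark the strand. Reads in the shared stretch cannot be told apart by strand, and the labels do not say how they were counted. Sphk2 was at 37.5, 37.5, 30.4 and 31.4 CPM in DKO, against 27.2, 33.1 and 28.2 CPM in WT, and was not highest in the library where Dbp was. Tef shares 193 nt of exon with the antisense gene Gm17597, which had 58, 24, 125 and 43 reads in DKO, against 38, 37 and 67 reads in WT, and was thus also highest in DKO replicate 3.

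Nfil3 (ENSMUSG00000056749, chromosome 13, positions 52967209 to 52981073), the repressor at D-boxes, followed another order. It was at 14.1, 12.4, 6.82 and 20.3 CPM in DKO, against 15.5, 11.8 and 3.97 CPM in WT. It was lowest in WT replicate 4 and DKO replicate 3, the libraries with the highest Dbp and Tef, and highest in DKO replicate 4, where Dbp and Tef were lowest.

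The repressors Ciart, Bhlhe40 and Bhlhe41 act back on the clock. CIART binds the BMAL1 complex, and BHLHE40 and BHLHE41 (DEC1 and DEC2) compete at E-boxes. Ciart (ENSMUSG00000038550, chromosome 3, positions 95878503 to 95882251) was at 0.924, 1.05, 5.74 and 0.408 CPM in DKO, against 0.363, 1.43 and 0.426 CPM in WT. These values rest on 21, 20, 112 and 10 reads in DKO and 7, 27 and 9 reads in WT. The interval in DKO replicate 3 (4.73 to 6.91 CPM) lay above the interval of every other library, the nearest being that of WT replicate 2 (0.942 to 2.08 CPM). Bhlhe41 (ENSMUSG00000030256, chromosome 6, positions 145858243 to 145865558) was at 36.002, 42.8, 125 and 20.2 CPM in DKO, against 19.0, 44.5 and 23.5 CPM in WT. Its order over the 7 libraries was that of Ciart. Bhlhe40 (ENSMUSG00000030103, chromosome 6, positions 108660629 to 108666925) was at 28.9, 66.0, 105 and 41.5 CPM in DKO, against 30.9, 56.8 and 25.9 CPM in WT. DKO replicate 1 lay below WT replicate 1, and the groups overlapped for each of the 3 repressors. Bhlhe40 shares 118 nt of exon with the antisense gene 0610040F04Rik, which was at 12.8, 8.14, 5.28 and 10.2 CPM in DKO, against 9.03, 12.3 and 6.199 CPM in WT, and was lowest in DKO replicate 3. Bhlhe41 shares 1280 nt with Gm43909, which had at most 3 reads in a library.

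Usp2 and Wee1 are clock-driven enzymes. USP2 is a ubiquitin protease that acts on clock proteins, and WEE1 is the kinase that holds back entry into mitosis. Usp2 (ENSMUSG00000032010, chromosome 9, positions 44067021 to 44095627) was at 112, 115, 203 and 67.8 CPM in DKO, against 51.2, 69.8 and 82.1 CPM in WT. Only DKO replicate 4 lay within the WT range. Wee1 (ENSMUSG00000031016, chromosome 7, positions 110122046 to 110143286) was at 8.14, 11.8, 20.3 and 6.12 CPM in DKO, against 5.55, 7.89 and 4.73 CPM in WT, and here too only DKO replicate 4 lay within the WT range. Usp2 shares 200 nt of exon with each of Gm49380 and Gm39325 on the other strand, which were not analysed here.

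**Figure D1:**
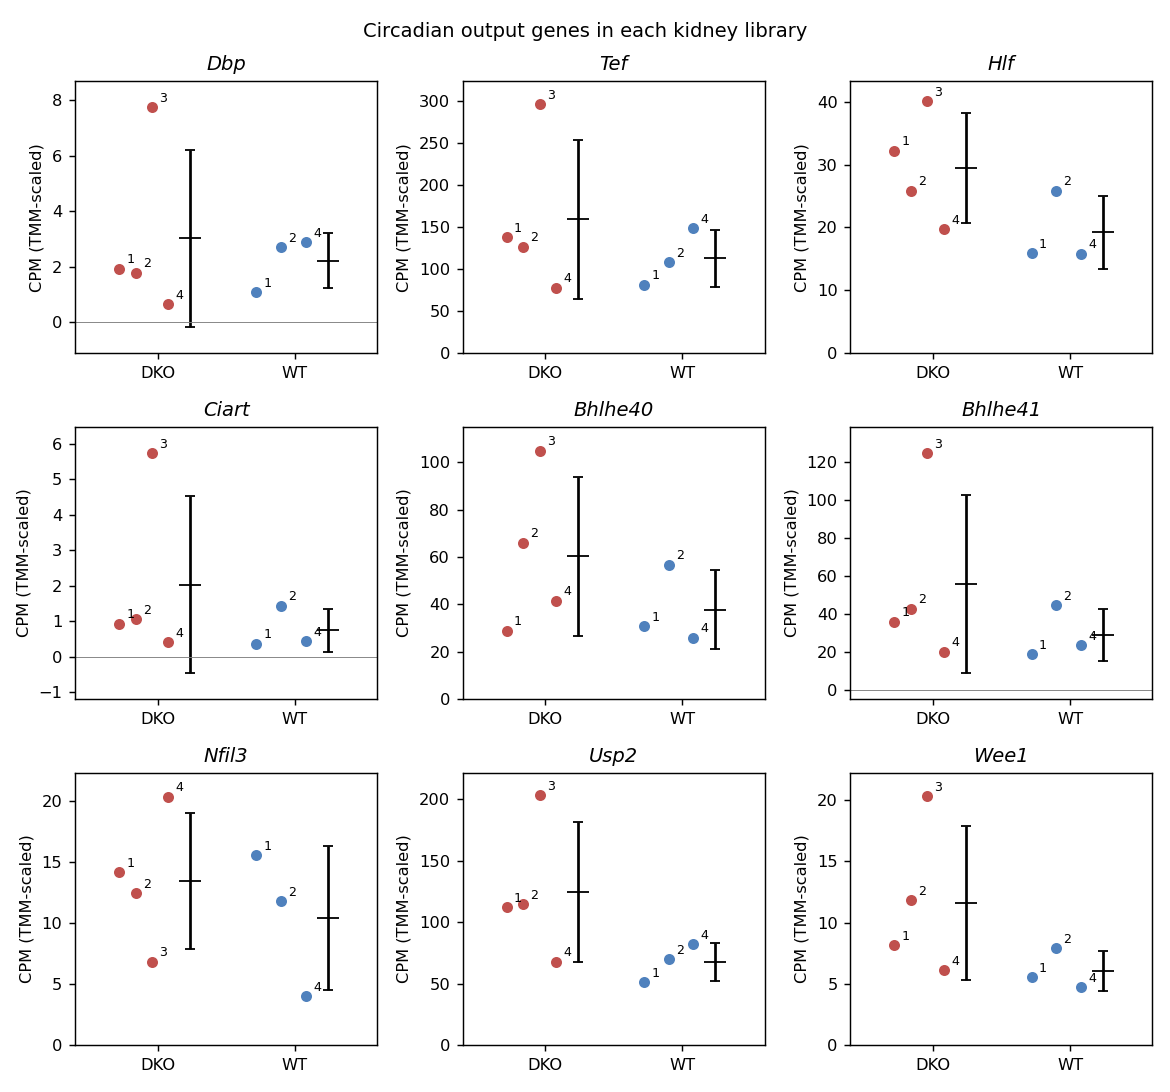
Level in CPM (vertical axes, scaled library sizes) of each output gene in 4 DKO libraries (red) and 3 WT libraries (blue). Numbers are replicates, and black bars give the mean ± SD. DKO replicate 3 is the highest point in every panel except Nfil3, where it is at 6.82 CPM.

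Per kilobase of merged exon, the order of mean levels over the 7 libraries was Usp2 (20.8 CPM per kb), Tef (17.7), Bhlhe40 (10.8), Bhlhe41 (6.60), Nfil3 (5.99), Hlf (3.75), Wee1 (2.70), Dbp (0.897) and Ciart (0.653). For neighbours in this order the intervals of mean ± SD overlapped in both groups, except those of Wee1 and Dbp in WT. Wee1 was at 3.39 ± 1.84 and Dbp at 1.01 ± 1.07 CPM per kb in DKO (SD, n = 4), and Wee1 was at 1.77 ± 0.479 and Dbp at 0.743 ± 0.330 CPM per kb in WT (SD, n = 3). Compared within each library, Tef exceeded Bhlhe40 and Bhlhe40 exceeded Bhlhe41 in 7 of 7 libraries. Hlf also exceeded Wee1, Wee1 exceeded Dbp and Dbp exceeded Ciart in 7 of 7. Usp2 exceeded Tef in 6 of 7 libraries, Nfil3 exceeded Hlf in 5 of 7 and Bhlhe41 exceeded Nfil3 in 4 of 7. By the WT means alone the order of 2 pairs was reversed: Tef (14.3 CPM per kb) lay above Usp2 (14.04) and Nfil3 (5.14) above Bhlhe41 (4.32).

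Between genotypes, none of the 9 output genes was called. In edgeR's quasi-likelihood test with Benjamini-Hochberg adjustment over all genes, 0 of 9 had an adjusted p under 0.05, and 0.0% of all 15394 tested genes were called. DESeq2 called 0 of the 9, against 4.74% of the genes to which it gave an adjusted p, and limma-voom called 0. At an unadjusted p under 0.05 there were 3 of 9 (Hlf, Usp2 and Wee1), against 21.1% of all genes. The DKO and WT libraries overlapped for all 9 genes, whereas they did not overlap for 17.4% of all genes (8.34% higher in DKO and 9.04% lower in DKO). Within DKO, 1 of the 9 genes, Ciart, had a library apart from the other 3 by Dixon's ratio, against 5.39% of all genes.

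The fitted log2 fold change of DKO over WT was above 0 for all 9, against 53.2% of all tested genes (median 0.67, against 0.04 over all tested genes). Usp2 averaged 124 ± 56.8 CPM in DKO (SD, n = 4) and 67.7 ± 15.5 CPM in WT (SD, n = 3), a log2 fold change of 0.88 (SE 0.33, edgeR adjusted p 0.189). Wee1 averaged 11.6 ± 6.29 CPM in DKO and 6.06 ± 1.64 CPM in WT (0.94, SE 0.39, edgeR adjusted p 0.213), and Hlf 29.5 ± 8.71 CPM in DKO and 19.2 ± 5.74 CPM in WT (0.62, SE 0.26, edgeR adjusted p 0.214). Ciart had the largest fitted difference of the 9 (1.45) and also the largest standard error (0.93), with an edgeR adjusted p of 0.385. Bhlhe41 (0.95, SE 0.65), Bhlhe40 (0.67, SE 0.45), Tef (0.50, SE 0.42), Dbp (0.43, SE 0.74) and Nfil3 (0.37, SE 0.46) had edgeR adjusted p values between 0.407 and 0.760.

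Much of the fitted difference came with 1 kidney. Without DKO replicate 3 the median over the 9 genes was 0.28, and 8 of 9 were above 0, against 53.9% of all tested genes. The log2 fold change of Ciart was then 0.11 (SE 0.60), that of Bhlhe41 0.20, that of Bhlhe40 0.28 and that of Tef 0.03. Dbp turned to -0.61 (edgeR adjusted p 0.544). Usp2, Wee1 and Hlf had 0.55, 0.53 and 0.44 (edgeR adjusted p 0.346, 0.404 and 0.411), and Nfil3 had 0.60. At an unadjusted p under 0.05 there were then 0 of the 9, against 2222 of 15350 tested genes. That count was also 0 without WT replicate 1 (2987 of 15927 tested genes) and 1 without WT replicate 4 (1582 of 15697).

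**Figure D2:**
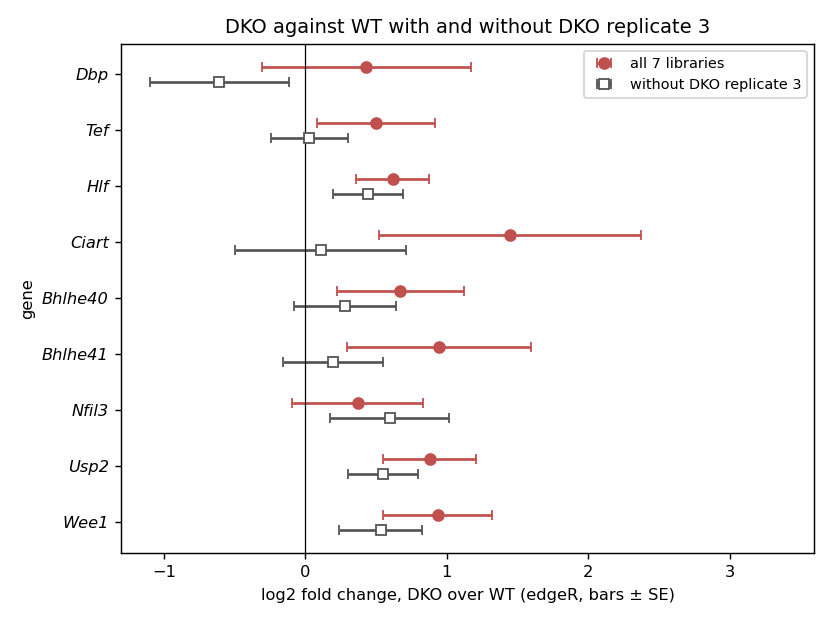
Log2 fold change of DKO over WT (horizontal axis, edgeR, bars ± SE) for the 9 output genes with all 7 libraries (filled circles) and without DKO replicate 3 (open squares). Ciart lies at 1.45 with all libraries and 0.11 without that kidney, and Dbp at 0.43 and -0.61.

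The core clock genes varied in the same kidneys. Of the activators, Bmal1 (Arntl) was at 14.8, 16.5, 2.61 and 30.4 CPM in DKO, against 24.6, 12.3 and 11.7 CPM in WT. Npas2 was at 7.57, 5.04, 0.718 and 22.4 CPM in DKO, against 17.7, 3.65 and 8.19 CPM in WT. Both were lowest in DKO replicate 3 and highest in DKO replicate 4, with ranges of 11.3-fold and 27.6-fold. That pair of extremes was found in 1.59% of all tested genes. The reverse pair, highest in DKO replicate 3 and lowest in DKO replicate 4, was that of Dbp and Tef and was found in 1.18% of all genes. Clock itself stayed between 10.2 and 17.5 CPM in DKO and between 11.7 and 16.7 CPM in WT.

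Among the repressors, Per3 was at 101, 248, 687 and 76.4 CPM in DKO, against 56.3, 115 and 74.2 CPM in WT. Per2 was at 1.98, 2.52, 14.3 and 1.55 CPM in DKO, against 1.25, 1.32 and 1.75 CPM in WT. Cry1 was at 2.11, 0.946, 12.1 and 4.04 CPM in DKO, against 5.29, 1.27 and 3.27 CPM in WT. All 3 were highest in DKO replicate 3, as were Per1 (9.94 CPM), Cry2 (35.8 CPM) and Nr1d2 (35.7 CPM). Nr1d1, the REV-ERB alpha gene, was highest in DKO replicate 2 instead (49.2 CPM, against 36.1 CPM in DKO replicate 3), and lowest in WT replicate 1 (18.6 CPM).

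Over the whole core list of 20 genes, edgeR called 0 at an adjusted p under 0.05. At an unadjusted p under 0.05 there were 5, against 21.1% of all tested genes in either direction. All 5 were higher in DKO, as were 1518 of all 15394 tested genes at that threshold. A log2 fold change above 0 was found for 14 (median 0.44), against 53.2% of all tested genes. The 7 Per, Cry and Nr1d genes were all above 0 (median 0.89, and 0.49 with 5 of 7 above 0 without DKO replicate 3). With all libraries Per2 had 1.80, Per3 1.76, Per1 1.46, Cry2 0.89, Cry1 0.55, Nr1d1 0.46 and Nr1d2 0.27. Without DKO replicate 3 the order changed: Per1 had 1.13, Per3 0.81, Per2 0.49, Nr1d1 0.49, Cry2 0.35, Nr1d2 -0.035 and Cry1 -0.45. The activators Bmal1, Clock and Npas2 had -0.01, -0.0012 and -0.13. Bmal1, Clock and Npas2 had 0.36, 0.05 and 0.25 without DKO replicate 3. Of the nuclear receptors that activate Bmal1, Rora had 0.56 and Rorb -0.32. Among the kinases and ligase subunits that modify clock proteins, Gsk3b was the 1 gene that DESeq2 called (746 ± 114 CPM in DKO, SD, n = 4, and 427 ± 131 CPM in WT, SD, n = 3, log2 fold change 0.80 in edgeR with adjusted p 0.163, and DESeq2 adjusted p 0.0346), and its groups did not overlap. Of all tested genes 8.34% lay higher in DKO without overlap, and DESeq2 called 4.74% of those to which it gave an adjusted p. Csnk1e (0.71), Csnk1d (0.43), Fbxw11 (0.20), Btrc (0.17) and Fbxl21 (-0.24) were not called by edgeR or DESeq2.

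**Figure D3:**
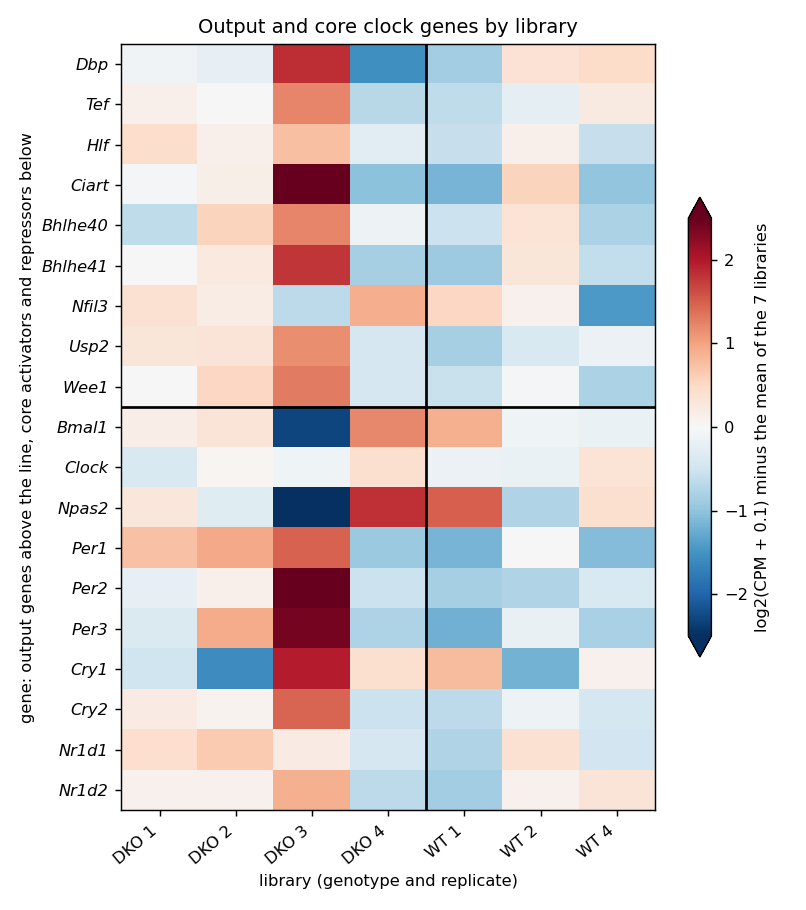
Level of each gene in each library as log2(CPM + 0.1) minus the mean of the 7 libraries (colour, red above and blue below, saturated at 2.5), with output genes above the horizontal line, core clock activators and repressors below it, and DKO libraries left of WT libraries. The DKO replicate 3 column is red for 8 output genes and for Per2 and Per3 and blue for Bmal1 and Npas2.

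Across the 7 libraries, the output genes other than Nfil3 varied together. All 28 pairs among these 8 genes had a positive Pearson r of log2 CPM (median 0.851, range 0.550 to 0.995). The median was 0.836 after the mean of each genotype had been subtracted. Ciart and Bhlhe41 were the most alike (r = 0.995, exact permutation p 2e-04, the smallest that the 5040 orders can give, and rho = 1, exact permutation p 4e-04; adjusted over 36 pairs 0.00714 and 0.0143). Without the 2 libraries farthest from the median of Ciart, r was 0.979. Within either genotype there were too few libraries for a separate r.

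The other pairs leaned more on DKO replicate 3. Of all 36 pairs, 18 had an exact permutation p for r under 0.05 after Benjamini-Hochberg adjustment, but 1 had such a p for rho, which uses ranks. No share over pairs of other genes was computed, so these counts have no background beside them. Without DKO replicate 3 the median r of the 28 pairs was 0.621, and 26 of 28 stayed positive. Tef and Usp2 had r = 0.916 (exact permutation p 0.00615, adjusted 0.0254) and rho = 0.821 (exact permutation p 0.0341, adjusted 0.144), with r = 0.810 without the 2 farthest libraries. Dbp and Tef had r = 0.936 (exact permutation p 0.00456, adjusted 0.0254) and rho = 0.893 (exact permutation p 0.0123, adjusted 0.111), with r = 0.729 without the 2 farthest. Of the 28 pairs without Nfil3, Dbp and Bhlhe40 had the lowest r (0.550, exact permutation p 0.204, adjusted 0.244, rho 0.143 with exact permutation p 0.783, adjusted 0.880), which was 0.0772 without the 2 farthest libraries.

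Nfil3 had a negative r with all 8 others, from -0.73 with Dbp to -0.00032 with Hlf, and none of these passed adjustment. With Dbp the exact permutation p was 0.0619 (adjusted 0.101), and rho was -0.93 with an exact permutation p of 0.00675 (adjusted 0.0810). The r between Dbp and Nfil3 was -0.69 without the 2 libraries farthest from the median of Dbp and -0.75 without DKO replicate 3. Without that kidney 4 of the 8 were negative.

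**Figure D4:**
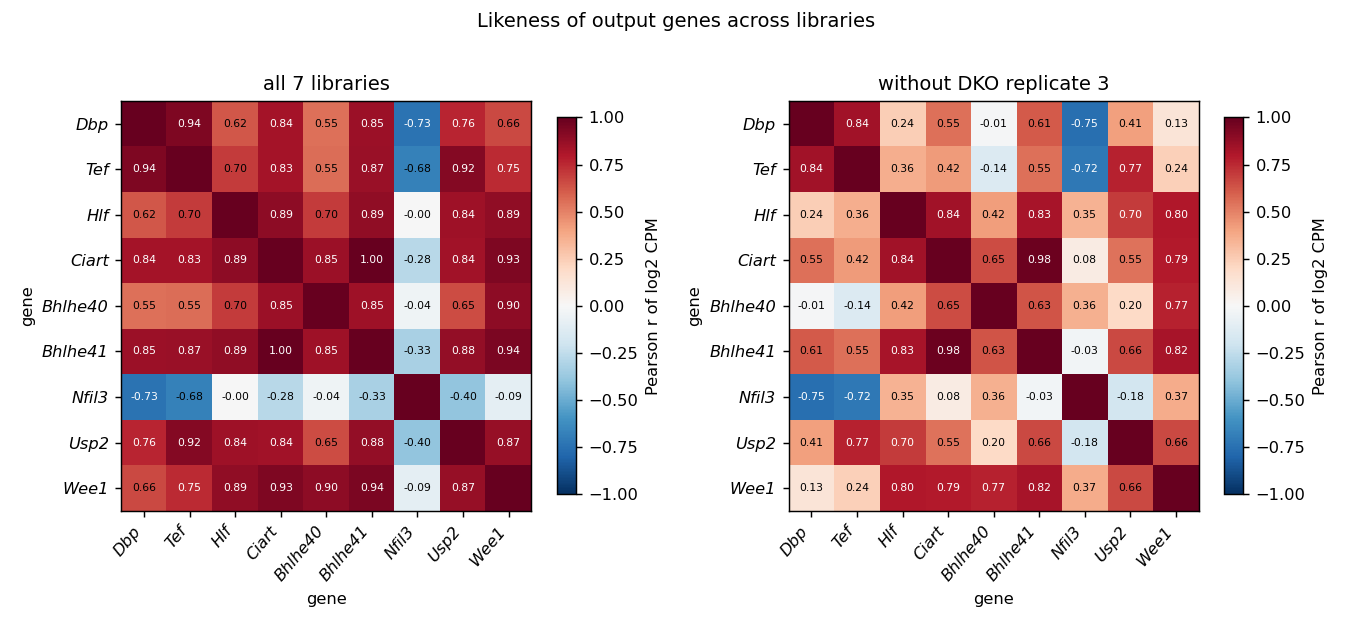
Pearson r of log2 CPM between output genes (colour and printed value) over all 7 libraries (left) and over the 6 libraries left without DKO replicate 3 (right). Every pair without Nfil3 is positive on the left, and Ciart with Bhlhe41 is the highest on both sides (0.995 and 0.983).

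Other genes whose pattern over the 7 libraries was most like that of each output gene were sought among the tested genes outside the 9, so that each r below was picked as the highest, or for Dbp as 1 of the 5 highest, of a search over all of them. For Dbp the 5 most alike were Snx8 (r = 0.976), Zfp251 (0.975), Rexo4 (0.973), Cdkl3 (0.966) and Naa50 (0.962). Snx8 was at 98.9, 88.5, 130 and 75.1 CPM in DKO, against 78.0, 106 and 101 CPM in WT, a much smaller range than that of Dbp. The most alike for Tef was Actr1b (0.977), for Hlf Pcyox1 (0.995), for Nfil3 Filip1l (0.989), for Usp2 Mb21d2 (0.988) and for Wee1 Ache (0.994). For both Ciart (0.969) and Bhlhe41 (0.968) it was Gm13217, at 1.03 CPM or less in each library, but with a prior count of 0.5 the gene most like Bhlhe41 was Cry2. Ciart and Bhlhe41 were more like each other than either was like Gm13217. These likenesses are descriptions over 7 libraries that share 2 genotypes.

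Known targets of the PAR bZIP factors, as described in mouse liver and brain, were tested for 5 of the 7 listed. No member was called by edgeR, nor was any of the 15394 tested genes. A log2 fold change above 0 was found for 4 of 5 (median 0.33), against 53.2% of all tested genes. An unadjusted p under 0.05 was found for 1 of 5, near the 21.1% of all tested genes. Por, the reductase that supplies electrons to cytochromes P450, was at 226, 236, 288 and 200 CPM in DKO, against 171, 239 and 187 CPM in WT. Alas1, the first enzyme of heme synthesis, was at 180, 177, 230 and 183 CPM in DKO, against 177, 147 and 137 CPM in WT. Both were highest in DKO replicate 3, by far less than Tef or Dbp. The cytochrome P450 genes Cyp2a4 and Cyp2a5, named after their values were seen, went opposite ways in that kidney. Cyp2a4 was at 155, 60.1, 15.5 and 143 CPM in DKO, against 124, 131 and 58.7 CPM in WT (log2 fold change -0.17, edgeR adjusted p 0.915). Cyp2a5 was at 56.2, 17.4, 115 and 46.4 CPM in DKO, against 29.3, 27.6 and 17.2 CPM in WT (log2 fold change 1.25, edgeR adjusted p 0.257). Both are near-identical copies, so how the counting split their reads is uncertain. Pdxk, pyridoxal kinase, was called by DESeq2 and is named after its values were seen: it was at 179, 218, 257 and 176 CPM in DKO, against 75.7, 137 and 66.6 CPM in WT (log2 fold change 1.16, edgeR adjusted p 0.163, DESeq2 adjusted p 0.0121). Its groups did not overlap, and every DKO kidney lay above the WT kidneys, including DKO replicate 4. That pattern was found in 8.34% of all tested genes, and DESeq2 called 4.74% of those to which it gave an adjusted p.

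In bulk kidney RNA, fewer cells of a type and less RNA per cell cannot be told apart. The summed immune cell markers were lowest in DKO replicate 3, though not each single marker: Nkg7, of the T and NK list, was at 2.26 CPM there, the highest of the 4 DKO libraries. The sum of 4 macrophage markers was 30.6 CPM there, against a DKO range of 30.6 to 67.3 CPM and a WT range of 58.0 to 69.8 CPM. The sum of 4 B cell markers was 10.05 CPM there, in a DKO range of 10.05 to 24.3 CPM and a WT range of 16.4 to 36.01 CPM. The sum of 6 T and NK cell markers ranged over 3.23 to 5.33 CPM in DKO, with DKO replicate 3 lowest, and 5.66 to 16.9 CPM in WT. Every marker on these 3 lists had at least 1 read in each library. The sum of the collecting duct markers Aqp2 and Atp6v1b1 was highest there, at 759 CPM, in a DKO range of 360 to 759 CPM and a WT range of 323 to 474 CPM. Aqp2, which is also a clock-linked gene, made up 698 CPM of it, and Atp6v1b1 was at 60.4 CPM there and highest in DKO replicate 4, at 63.9 CPM. The sum of the thick ascending limb markers Umod and Slc12a1 was lowest there, at 3218 CPM, in a DKO range of 3218 to 5606 CPM and a WT range of 4909 to 8239 CPM. The low sum came from Umod, at 2835 CPM there. Slc12a1 went the other way and was highest in DKO replicate 3 of all libraries, at 384 CPM. The part of these cell markers in the output gene levels was not tested.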

How the data were processed

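Kidney RNA was sequenced as Nextera XT libraries, a kit without strand marking, per the labels' protocols. The authors deposited raw read counts per Ensembl gene, a filtered copy of these counts, and a TMM-scaled CPM signal table that was used here for gene symbols. Reads were aligned with STAR 2.5.2a, per the submitters' processing notes, which list GRCm38 and GRCh38. How reads were counted, and against which gene annotation, was not stated in the labels.

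From the raw counts, 24 rows that name no mouse gene (at most 0.000697% of a library) were left out. DKO was compared with WT by edgeR 4.0.16 (R 4.3.3, robust quasi-likelihood F test, TMM scaling, filterByExpr with a minimum count of 10 and minimum total of 15), two-sided, with Benjamini-Hochberg adjustment over 15394 genes and a threshold of 0.05. Standard errors derive from the F statistic. DESeq2 1.42.0 and limma-voom 3.58.1, another scaling, no filter, length and GC correction, a replicate block and leaving out each library were alternatives. Tests treat each library as 1 animal. Exact permutation tests of correlations were two-sided. Exon lengths came from GENCODE M21 (GRCm38) and promoters from RefSeq.

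The 9 genes and the lists were chosen with earlier results of these data known. Named genes were the 9, the core clock list, the most alike gene of each (5 for Dbp), and from other lists the genes past the threshold or the 2 most abundant. On counts simulated for DKO against WT over 15394 genes, edgeR recovered 4% of genes changed 1.5-fold, 52% changed 2-fold, 88% changed 4-fold and 90% changed 8-fold (50 genes each). It also called 13 unchanged genes. Each gene was drawn independently, without variation shared between libraries, so these shares need not hold for the real counts. There Hs3st3a1, at a log2 fold change of -4.15, had an edgeR adjusted p of 0.163. Some genes that the naming rule covers are not reported here.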

Additional observations from a re-analysis of the deposited data

Results flagged for a closer look

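In the 4 DKO libraries, Ciart had 1 library apart from the other 3. The gap between DKO replicate 3 (5.74 CPM) and the next library (1.05 CPM) was 0.88 of the whole range, above the 95% critical value of Dixon's ratio for 4 samples. Per2 was apart in the same library (14.3 CPM against 2.52 CPM in the next, ratio 0.924). Rora and Rorb, both retinoic acid receptor-related genes, were apart through a low DKO replicate 1, at 12.3 CPM and 2.38 CPM (ratios 0.832 and 0.845). Chance flags about 1 in 20 groups. Of all 15394 tested genes, 5.39% had a DKO library apart in this way, and 1.03% had DKO replicate 3 apart as the highest. Dbp, at a ratio of 0.819, and Bhlhe41, at 0.784, stayed below the critical value.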

How the results depend on the processing

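None of the 9 output genes passed an adjusted p of 0.05 in any of the 14 alternatives, and their median log2 fold change lay between 0.27 (replicate block) and 0.90 (without DKO replicate 1). Over all genes 0 were called in the main test, 66 with no low-count filter, 616 by DESeq2, 1 with a replicate block and the length and GC trend removed, and 0 to 7 when 1 library was left out. Of the core clock list DESeq2 called 1, Gsk3b (0.78). Of 406 gene and alternative values, 372 kept their direction and side of the threshold and 33 turned in sign, none of them past the threshold; the cause was not tested. Dbp had -0.068 with limma-voom, and -0.61 to 0.77 when 1 library was left out. Nfil3 had -0.0225 to 0.76 when 1 library was left out, turning without WT replicate 4. Leaving out 1 library gave Bmal1 -0.52 to 0.41, Clock -0.16 to 0.18, Npas2 -1.14 to 0.58, Cry1 -0.45 to 1.05, Nr1d2 -0.035 to 0.52 and Btrc -0.10 to 0.40. With no low-count filter Bmal1 had 9e-04 and Clock 0.0079, and Btrc had -0.17 with the length and GC trend removed.

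With the replicate block (the replicate number as a factor) 0 genes were called, 0 of them output genes. WT has no replicate 3, so in both block fits DKO replicate 3 is alone in its block and adds nothing to the genotype difference. The block is therefore close to a repeat of the fit without that kidney. The median over the 9 genes was 0.267 with the block and 0.279 without DKO replicate 3. Dbp had -0.62, Bmal1 0.36, Clock 0.024, Npas2 0.23, Cry1 -0.47 and Nr1d2 -0.0063. With the block and the length and GC trend removed Dbp had -0.65, Tef -0.18, Bmal1 0.16, Npas2 0.13, Cry1 -0.49, Nr1d2 -0.071, Btrc -0.041 and Fbxw11 -0.017. Deviations from the group means of same-numbered libraries correlated at -0.13, 0.16 and 0.14 for numbers 1, 2 and 4. WT replicate 2 correlated best with its own number, and WT replicates 1 and 4 with another. With so few libraries these values cannot show whether same-numbered libraries shared more than a number. Unscaled library totals moved none of the 18 group means of the output genes by more than 1 SD. The scaling factors ran only from 0.936 (WT replicate 4) to 1.048 (DKO replicate 3), so a move of that size was hardly possible. A prior count of 0.5 moved none of the 13 likeness values by more than 0.05, but put Cry2 in place of Gm13217 as the gene most like Bhlhe41. Depth limits Ciart and Dbp, with as few as 7 and 16 reads in a library.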

Other observations

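Glucocorticoids act on several clock genes, Per1 among them. Of 7 glucocorticoid-responsive genes, all had a log2 fold change above 0 in DKO kidneys, against 53.2% of all tested genes (median 0.93, and 0.74 without DKO replicate 3). No member was called by edgeR, and 4 had an unadjusted p under 0.05, against 21.1% of all genes. Per1, among these 4, is also on the core clock list, so the lists are not separate observations. Errfi1, an inhibitor of EGF receptor signalling, was at 867, 564, 619 and 416 CPM in DKO, against 279, 614 and 218 CPM in WT. Tsc22d3, which encodes the glucocorticoid-induced protein GILZ, was at 89.5, 95.9, 191 and 43.7 CPM in DKO, against 49.8, 63.2 and 52.0 CPM in WT, and was highest in DKO replicate 3. Fkbp5, a chaperone of the glucocorticoid receptor named after its values were seen, was called by DESeq2 (adjusted p 0.0116, edgeR adjusted p 0.163). It was at 41.4, 52.2, 77.4 and 31.8 CPM in DKO, against 21.7, 22.0 and 21.2 CPM in WT. Every DKO kidney lay above every WT kidney for Fkbp5, as was found for 8.34% of all tested genes. DESeq2 called 4.74% of the genes to which it gave an adjusted p.

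Among clock-linked kidney outputs, 6 of 7 were tested. Tsc22d3 is on this list as well as on the glucocorticoid-responsive list. All 6 had a log2 fold change above 0, against 53.2% of all tested genes (median 0.38, and 0.22 without DKO replicate 3). At an unadjusted p under 0.05 there were 0, against 21.1% of all tested genes. Aqp2, the water channel of the collecting duct, was at 425, 301, 698 and 427 CPM in DKO, against 341, 272 and 419 CPM in WT. Nampt, which makes a precursor of NAD, was at 199.9, 158, 251 and 120.2 CPM in DKO, against 144, 158 and 148 CPM in WT. Both were highest in DKO replicate 3, and their groups overlapped.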
